A study of Caenorhabditis elegans with 2 samples.

Results

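The genes described here are 5 translation elongation factor genes of Caenorhabditis elegans: eef-1A.2 and eef-1A.1, iff-2 and iff-1, and eef-2. They are 5 of the 19973 nuclear protein-coding genes of the annotation. They were chosen by measured values, since earlier results of the same peak lists had shown strong regions near some of them. Their ranks are therefore a description, and no test was made. The assay was chromatin immunoprecipitation followed by sequencing (ChIP-seq) against MDL-1, a basic helix-loop-helix leucine zipper transcription factor of the Mad family. The animals were whole L4 larvae of pooled sex from 1 strain, OP355, with the genotype unc-119(tm4063) III; wgIs355, where wgIs355 is the insertion for mdl-1. The labels disagree on the tagged protein: the antibody and source fields name mdl-1, whereas 1 note has KLU-1 as the fusion partner of the GFP-FLAG tag. There was 1 group with 2 biological replicates, and every animal carried both the unc-119 allele and the insertion. Whole larvae mix all tissues, so the cells in which a region was occupied cannot be told from these files.

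Elongation factors carry the ribosome along the messenger RNA. The protein eEF1A, encoded by eef-1A.2 and eef-1A.1, brings the aminoacyl-tRNA to the ribosome in a complex with GTP. The protein eEF2, encoded by eef-2, moves the tRNAs and the messenger RNA on by 1 codon after each peptide bond. The protein eIF5A, encoded by iff-2 and iff-1, was first named as an initiation factor, carries the modified amino acid hypusine and helps the ribosome past sequences that form peptide bonds slowly. Mad family proteins bind DNA together with Max family partners, and the E-box CACGTG is their classical site.

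Each gene was given a window from 5 kb upstream of its most upstream annotated 5' end to the end of the gene, and a region counted for the gene when its summit lay inside. Regions came from 4 deposited peak lists on genome build ce11. The list called optimal holds the 1115 regions that the authors derived from the other lists with a test of reproducibility. The pooled list and the list of each replicate hold 30000 candidate regions each and include weak ones. The signal is the authors' own value for each region, and its rank within a list runs from 1 for the strongest. The depth of the libraries is unknown, so signal was not compared in size between lists. The optimal regions were exactly the strongest of the pooled list, with a lowest signal of 48.2, and the next pooled region had 48.19. Of the optimal regions, 1113 overlapped a candidate region of both replicates.

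The sequences shown here are those under the strongest regions of eef-1A.2, iff-2 and eef-1A.1, because these 3 genes hold the optimal regions, and a stretch of iff-1 for contrast. The first is the whole optimal region of eef-1A.2 (chrX:7823100-7823335, plus strand). The second is the whole optimal region of iff-2 (chrII:8561375-8561490, minus strand). The third is 75 bp either side of the optimal summit of eef-1A.1 (chrIII:6971962-6972112, minus strand). The fourth is 50 bp either side of the position in iff-1 that lies 61 bp upstream of its 5' end, as the summit does in iff-2 (chrIII:9747204-9747304, minus strand). All are on ce11, from the RefSeq genome sequence, and read 5' to 3' in the direction of the gene. Capitals mark 4 motifs that were searched on both strands: the E-box CACGTG, its variant form CACGCG, the repeat GAGAGA, and the word GCGTGG, which resembles sites of EGR-type zinc finger proteins such as the relatives of KLU-1.
eef-1A.2: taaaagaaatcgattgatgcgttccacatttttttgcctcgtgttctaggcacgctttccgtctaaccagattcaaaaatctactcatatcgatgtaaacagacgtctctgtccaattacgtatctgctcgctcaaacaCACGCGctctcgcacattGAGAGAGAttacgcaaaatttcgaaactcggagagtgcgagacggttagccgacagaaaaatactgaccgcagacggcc
iff-2: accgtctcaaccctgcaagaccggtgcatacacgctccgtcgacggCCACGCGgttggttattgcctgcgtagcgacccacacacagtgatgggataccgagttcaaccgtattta
eef-1A.1: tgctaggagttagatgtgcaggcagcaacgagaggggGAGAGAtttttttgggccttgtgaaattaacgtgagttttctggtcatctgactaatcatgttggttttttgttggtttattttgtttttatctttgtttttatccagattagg
iff-1: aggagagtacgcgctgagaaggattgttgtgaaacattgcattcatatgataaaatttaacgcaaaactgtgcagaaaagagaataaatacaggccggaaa

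Of the 5 genes, 3 had an optimal region in the window: eef-1A.2, iff-2 and eef-1A.1, with 1 each. Over all nuclear protein-coding genes, 1490 of 19973 (7.46%) had one. As the genes were chosen on these lists, nothing is read from that difference. All 5 genes had a pooled candidate region, as did 15212 (76.2%) of all genes. The windows of the 5 genes were 6332 to 8422 bp long, and the median over all genes was 7027 bp. In all, the 5 windows held 18 pooled regions, 17 regions of replicate 1 and 19 of replicate 2.

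**Figure D1:**
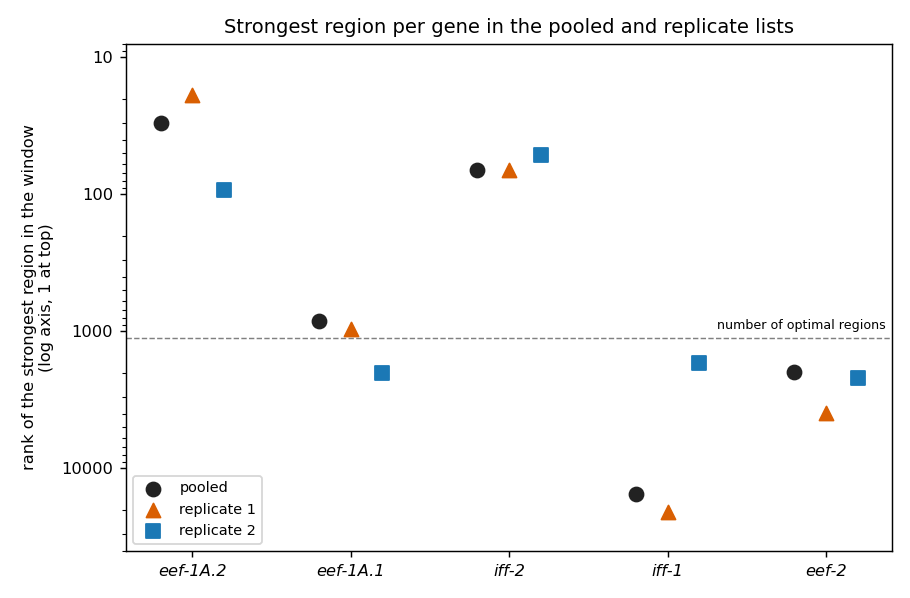
Rank of the strongest region in each gene window (log axis, 1 at the top) in the pooled list (circles), replicate 1 (triangles) and replicate 2 (squares). The dashed line marks 1115, the number of optimal regions. The points of eef-1A.2 and iff-2 lie between 19 and 93 in all 3 lists. The replicate points of iff-1 lie farthest apart, but they are different regions at different places in its window.

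The strongest region of the group lay upstream of eef-1A.2 (WBGene00001169, chrX:7823654-7825769, plus strand). Its pooled signal was 241, rank 30 of 30000. It ranked 19 in replicate 1, with a signal of 176.7, and 93 in replicate 2, with a signal of 62.3. Both replicates thus placed it among their strongest regions, replicate 1 higher than replicate 2. Of all protein-coding genes, 43 (0.215%) had as strong a region in the pooled list, against 29 (0.145%) in replicate 1 and 124 (0.621%) in replicate 2. On chromosome X, its region was the 11th strongest of 289 optimal regions.

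The summit at eef-1A.2 was intergenic, 424 bp upstream of the annotated 5' end, at the same base in the pooled list and replicate 1. In replicate 2 it was 437 bp upstream. The nearest protein-coding 5' end was that of eef-1A.2 itself, and the next gene upstream, sek-1, which encodes a MAP kinase kinase, lies on the same strand with a gap of 2617 bp. A non-coding RNA gene, R03G5.8, lies between the summit and eef-1A.2, 129 to 269 bp upstream of the 5' end and on the opposite strand. A weaker pooled region, of rank 8569, overlapped the optimal one and had its summit in R03G5.8, 225 bp upstream. The replicate regions with summits at most 100 bp from it ranked 12573 in replicate 1 and 3028 in replicate 2. The window held 7 pooled regions, and the strongest carried 69% of their summed signal. The next strongest ranked 3975, with its summit in the 3' UTR of eef-1A.2, 2048 bp downstream of the 5' end. Regions overlapping that one ranked 3055 in replicate 1 and 23622 in replicate 2.

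**Figure D2:**
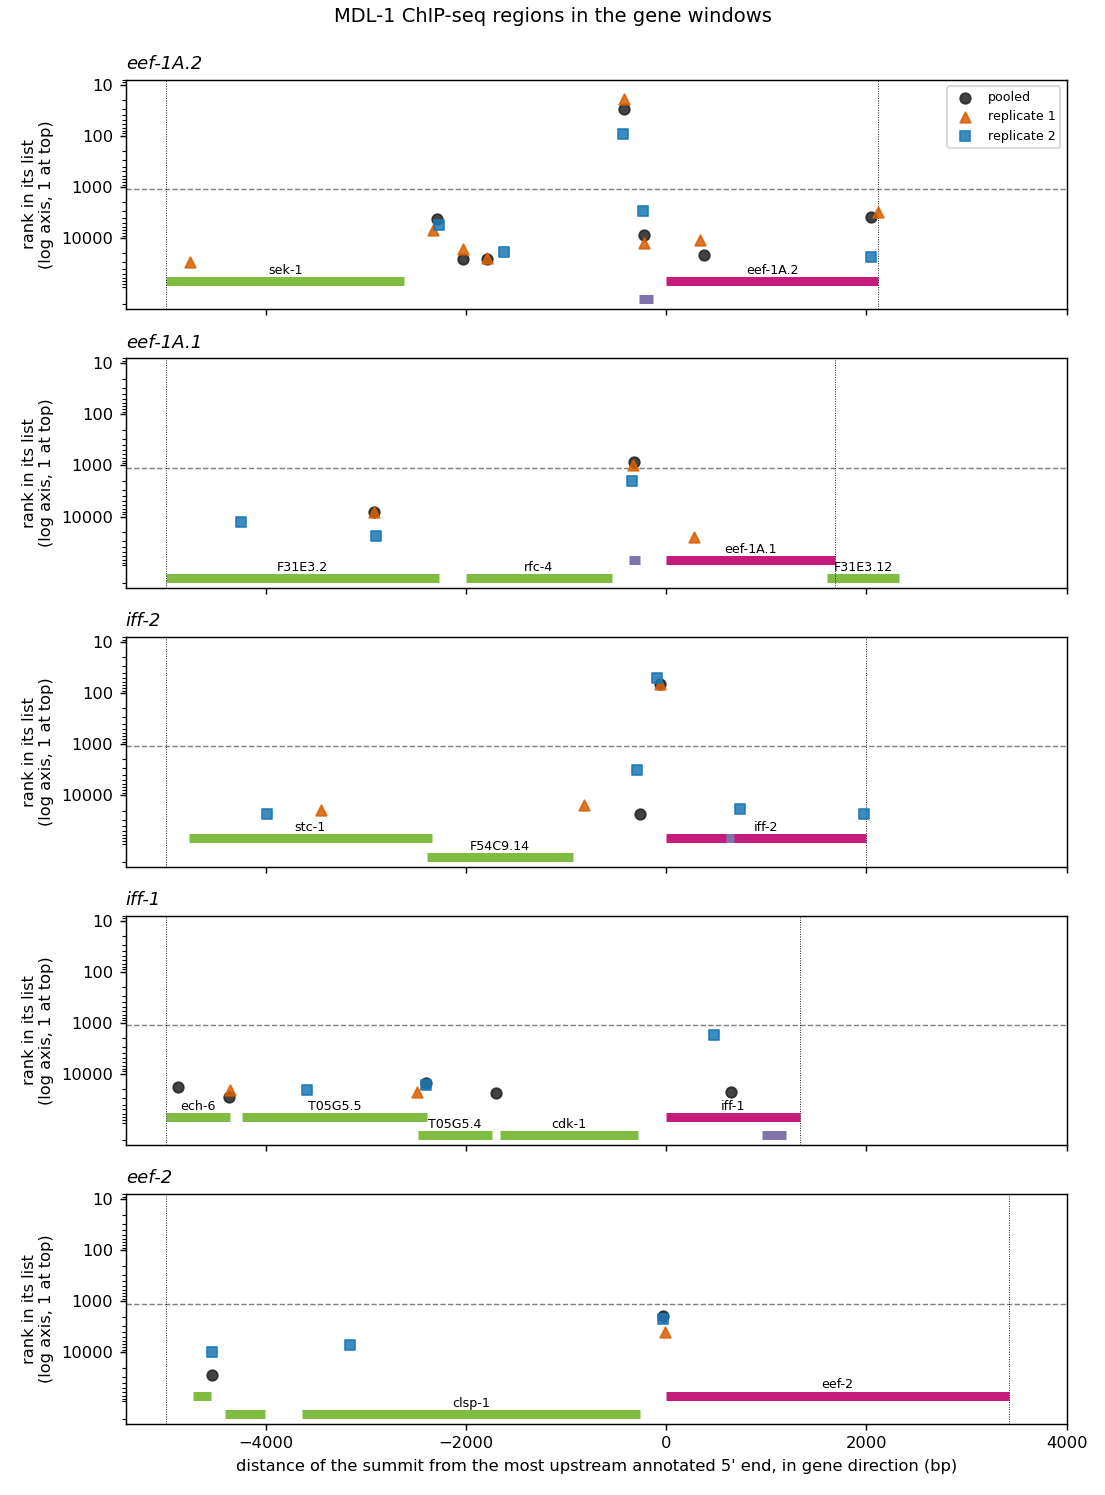
Regions in the 5 gene windows, by distance of the summit from the most upstream 5' end of the gene (bp, in gene direction) and rank in the list (log axis, 1 at the top). Circles, triangles and squares are the pooled, replicate 1 and replicate 2 lists; bars show genes on the same strand (upper row) and the opposite strand (lower row), magenta for the gene itself, green for other protein-coding genes and purple for non-coding genes. Dotted lines bound the window and the dashed line is 1115. In eef-1A.2 and iff-2 the symbols of the 3 lists meet near the top just upstream of 0, whereas iff-1 and eef-2 have no symbol above the dashed line.

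The paralogue eef-1A.1 (WBGene00001168, chrIII:6970026-6971712, minus strand) had a weaker optimal region. Its pooled signal was 57.2, rank 846, so it lay in the weaker part of the optimal list. It ranked 960 in replicate 1 (signal 36.0) and 2024 in replicate 2 (signal 15.9). In replicate 2 it was therefore not among the 1115 strongest. Of the 1113 optimal regions matched in both replicates, 717 were among the 1115 strongest of both. Of all genes, 1150 (5.76%) had as strong a pooled region. In replicate 1 the count was 1280 (6.41%), and in replicate 2 it was 2485 (12.4%).

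The summit at eef-1A.1 lay 325 bp upstream of the 5' end when pooled, 330 bp in replicate 1 and 346 bp in replicate 2. It fell in the annotated miRNA gene cel-mir-5549, which spans 264 to 373 bp upstream of eef-1A.1. The region also lies between divergent genes, as rfc-4 starts 541 bp away on the opposite strand. The gene rfc-4, which encodes a subunit of the clamp loader of DNA replication, had its 5' end nearer to the summit, at 216 bp. With each region given to the gene of the nearest 5' end alone, eef-1A.1 had none, and eef-1A.2 and iff-2 kept theirs. The one other pooled region in the window ranked 8155, in an intron of F31E3.2.

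Between the paralogues, the strongest region of eef-1A.2 had 4.22 times the pooled signal of that of eef-1A.1. The ratio was 4.91 in replicate 1 and 3.91 in replicate 2. The order of the pair was thus the same in both replicates. The coding sequences of both genes were 1389 bp long and identical at 1305 positions (94%), but they shared 4 of 1340 stretches of 50 bases (0.299%). In the 500 bp upstream of the 5' ends the longest shared run was 11 bases. That upstream sequence held 45.4% G and C in eef-1A.2 and 31.4% in eef-1A.1. Of the stretches of 50 bases in the optimal regions, 0 of 187 in eef-1A.2 and 0 of 347 in eef-1A.1 occurred elsewhere in the nuclear genome.

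The gene iff-2 (WBGene00002065, chrII:8559375-8561367, minus strand) had the second strongest region of the group. Its pooled signal was 190.2, rank 66. It ranked 67 in replicate 1 (signal 121.9) and 52 in replicate 2 (signal 75.2). Its rank in replicate 2 was better than that of eef-1A.2, and its rank in replicate 1 was worse. Of all genes, 92 (0.461%) had as strong a pooled region, and in replicate 1 and replicate 2 the shares were 0.466% and 0.335%.

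The summit at iff-2 was intergenic and close to the gene, 61 bp upstream of the 5' end. It was 64 bp upstream in replicate 1 and 93 bp upstream in replicate 2. The divergent neighbour F54C9.14 starts 935 bp away, and iff-2 had the nearest 5' end. The strongest region carried 93.8% of the summed pooled signal in the window, the highest share among the 5 genes in that list, where the window of iff-2 held 2 regions. Over the 1490 genes with an optimal region, the median share was 52.7% (quartiles 39.1% and 68.4%), with a median of 5 regions, and fewer regions raise the share. In iff-2 the share was 85.8% of 3 regions in replicate 1 and 70.2% of 5 regions in replicate 2. The region was 116 bp wide, against a usual 396 bp in the pooled list, and that of eef-1A.2 was 236 bp wide. Of the optimal regions, 85 (7.62%) were under 250 bp. The optimal region of eef-1A.1 had the usual width.

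The paralogue iff-1 (WBGene00002064, chrIII:9745862-9747193, minus strand) had no optimal region. Its strongest pooled region ranked 15258, signal 15.5, with a summit 2400 bp upstream in the 3' UTRs of T05G5.4 and T05G5.5. Of all genes, 56.8% had as strong a pooled region. In replicate 1 the strongest region ranked 20654 (signal 9.25). Both ranks are in the weak part of the lists. In replicate 2, however, a region in the gene itself ranked 1715 (signal 17.0), as strong as in 10.7% of genes.

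That region of replicate 2 had its summit in an intron of iff-1, 474 bp downstream of the most upstream 5' end and 115 bp upstream of an alternative one. No candidate region of replicate 1 overlapped it, and the overlapping pooled region ranked 23240. Of the 1001 regions of replicate 2 within 500 ranks of it, 191 (19.1%) had no overlapping region in replicate 1. The divergent neighbour of iff-1, cdk-1, which encodes a cyclin-dependent kinase of the cell cycle, starts 279 bp away. The nearest optimal region to iff-1, of rank 34, lay 18503 bp upstream and nearest to cbp-1, a homologue of the CBP and p300 acetyltransferases.

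Between these paralogues, the pooled signal of the strongest region of iff-2 was 12.3 times that of iff-1. The ratio was 13.2 in replicate 1 and 4.43 in replicate 2. The regions of the pair do not lie at like positions, so the ratio compares the strongest region wherever it stood in each window. The region of iff-1 also differed between the lists. Its summit was 2400 bp upstream when pooled, 4355 bp upstream in replicate 1 and 474 bp downstream in replicate 2. The 3 ratios are therefore not repeats of 1 comparison. Within 1000 bp upstream to 200 bp downstream of a 5' end, the pooled ratio was 15.0. The coding sequences, 483 bp in iff-2 and 585 bp in iff-1, were identical at 380 of 483 aligned positions (78.7%). They shared no stretch of 50 bases, out of 434 in iff-2. The longest shared run in the 500 bp upstream was 9 bases, and the G and C content there was 36.2% in iff-2 and 39.2% in iff-1.

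The single-copy gene of the group, eef-2 (WBGene00001167, chromosome I, 9163531 to 9166952, plus strand), had a region at its 5' end that was below the optimal threshold. The pooled signal was 36.2, rank 1969, against 48.2 for the weakest optimal region. Its deposited −log10 q-value was 1.63, against at least 2.86 in the optimal list. It ranked 3939 in replicate 1 (signal 18.6) and 2182 in replicate 2 (signal 15.5). Its summit was intergenic, 33 bp upstream of the 5' end (pooled and replicate 2) or 9 bp upstream (replicate 1). The position was thus close to that in iff-2, at a lower rank. Of all genes, 12.3% had as strong a pooled region.

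The nearest optimal region to eef-2 lay outside its window, at the other end of the gene. Its summit was 385 bp past the gene end and 3806 bp from the most upstream 5' end. It ranked 1109, with a signal of 48.4, one of the last of the optimal list. The nearest 5' end was that of pyk-1, a pyruvate kinase gene, at 1095 bp. Its rank was 1394 in replicate 1 and 1056 in replicate 2. The divergent neighbour of eef-2, clsp-1, starts 265 bp from it.

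No optimal region lay at the upstream edge of the windows. The last pooled region inside the upstream edge ranked 4316 for eef-1A.2 (2286 bp upstream) and 8155 for eef-1A.1 (2917 bp). It ranked 23765 for iff-2 (264 bp), 18438 for iff-1 (4883 bp) and 28014 for eef-2 (4534 bp). The first one beyond that edge ranked 28569 for eef-1A.2 (8764 bp upstream) and 17376 for eef-1A.1 (5192 bp). It ranked 8962 for iff-2 (6458 bp), 12970 for iff-1 (5910 bp) and 6021 for eef-2 (13189 bp). All of these ranks are below the optimal list.

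**Figure D3:**
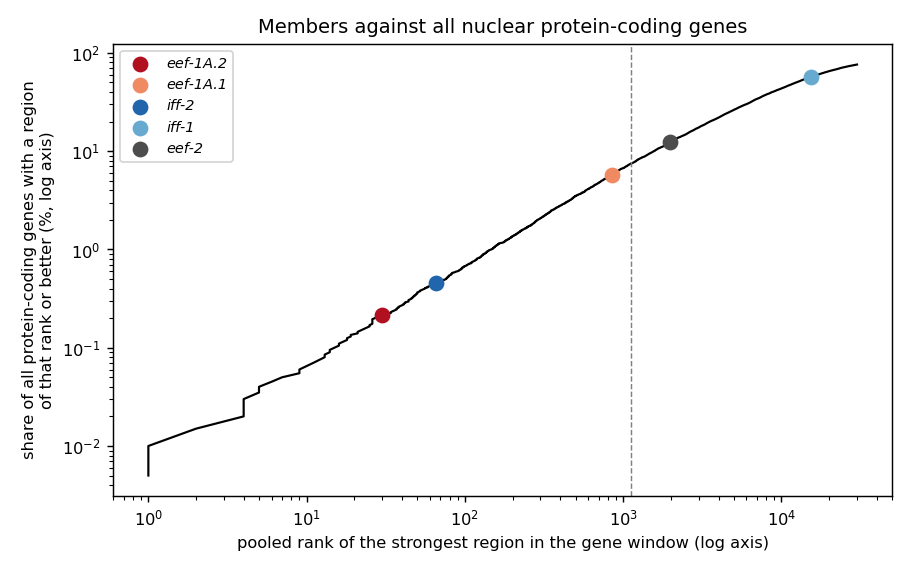
Share of all nuclear protein-coding genes (percent, log axis) whose strongest pooled region has a given rank or better (log axis), as a line, with the 5 genes as points on it. The dashed line is 1115. The points run from eef-1A.2 at 0.215% and iff-2 at 0.461% to iff-1 at 56.8%.

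The 3 optimal summits lay 424, 61 and 325 bp upstream of eef-1A.2, iff-2 and eef-1A.1. Over the 1490 genes with an optimal region, the strongest summit was at a median of 1126.5 bp upstream, and in 326 genes (21.9%) it was at most 500 bp upstream. In 259 (17.4%) it lay within the gene. Among the 5 genes, the strongest pooled region was within 500 bp upstream in all but iff-1.

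The replicates ranked the regions of eef-1A.2 and eef-1A.1 less alike than that of iff-2. The larger of the 2 replicate ranks was 4.89 times the smaller in eef-1A.2, 2.11 times in eef-1A.1, 1.29 times in iff-2 and 1.81 times in eef-2. The median over the 1113 optimal regions matched in both replicates was 1.76 times. The ratio was smaller than in eef-1A.2 in 90.3% of them, smaller than in eef-1A.1 in 62.7%, and smaller than in iff-2 in 24.9%.

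Both of the strong regions held a CACGCG near the summit, a sequence that differs from the E-box in 1 base. In eef-1A.2 it lay 9 to 14 bp downstream of the summit, and in iff-2 it lay 10 to 15 bp upstream. The windows searched were 50 bp either side of the strongest pooled summit, on both strands. None of the 5 genes had CACGTG there. Of the windows at all optimal summits, 10.3% held CACGCG and 19.2% held CACGTG, and of those at all 30000 pooled summits 1.92% and 3.57% did. No match says only that these letters are not in the window. The genes and motifs were chosen with earlier results of these data known, so nothing is read from the difference to these shares.

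The repeat GAGAGA occurred as 2 overlapping copies in eef-1A.2, 27 to 34 bp downstream of the summit. In eef-1A.1 it occurred once, 33 to 38 bp upstream. It was in 36.5% of the optimal windows and 8.71% of the pooled windows. The sequence GCGTGG was found in iff-2 alone of the 5, as its reverse complement, and it overlaps the CACGCG there (the capitals CCACGCG in the sequence above hold both). It was in 5.11% of the optimal windows and 1.87% of the pooled windows. The windows of eef-2 and iff-1 held none of the 4 sequences, and neither did the window of the replicate 2 region of iff-1. These matches describe the sequence and show no contact with the protein.

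Base composition at the summits differed among the genes. The 101 bp windows held 44.6% G and C in eef-1A.2, 36.6% in eef-1A.1, 58.4% in iff-2, 31.7% in iff-1 and 45.5% in eef-2. The median over optimal windows was 48.5%, with quartiles of 43.6% and 54.5%, and over pooled windows it was 33.7%. The window of iff-2 was thus above the upper quartile of the optimal windows, and that of eef-1A.1 was below the lower one.

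**Figure D4:**
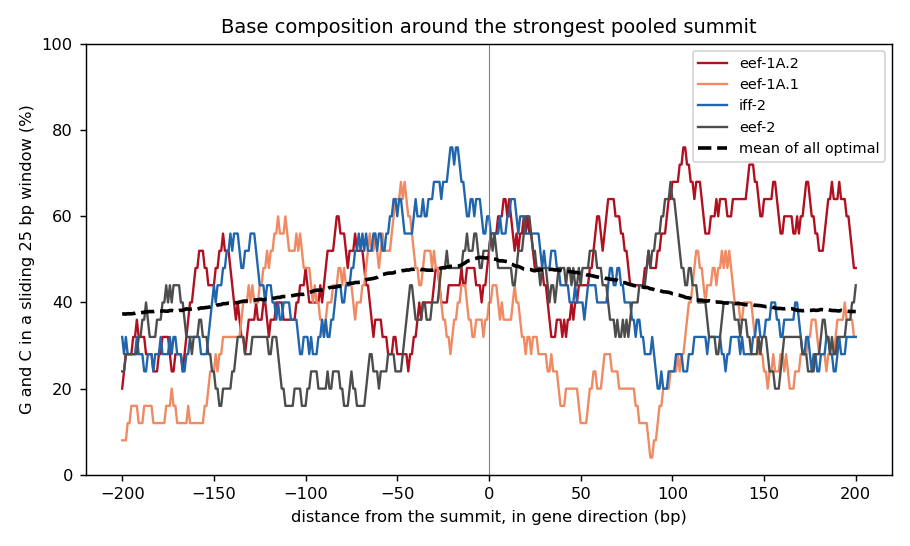
Share of G and C (percent, sliding window of 25 bp) by distance from the strongest pooled summit (bp, in gene direction) for eef-1A.2, eef-1A.1, iff-2 and eef-2, with the mean over all optimal regions dashed. The line of iff-2 peaks at 76% just upstream of the summit, at -21 bp, while that of eef-1A.2 peaks at 76% farther downstream, at 106 bp.

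Partners of these factors in elongation and release had no optimal region. Of 23 symbols in the list, 21 were matched in the annotation. They comprise the exchange factor subunits of eEF1A, the eEF2 kinase efk-1, the enzymes that make hypusine and diphthamide, the release factors and the mitochondrial factors. None (0 of 21) had an optimal region in the window, against 7.46% of all genes. A pooled one was found for 17 (81%), against 76.2% of all genes. Among the 1115 strongest regions of replicate 2 alone, however, dph-1 (rank 427) and dph-5 (rank 993) had one. The other matched genes of diphthamide synthesis did not. For dph-5, the overlapping pooled region had its summit 4367 bp upstream, nearer to nduf-11. Its overlapping region in replicate 1 ranked 18008. The median rank of the strongest pooled region was 4580 over the 17 partners with one, and 8123.5 over all genes with a region. The 3 strongest, named after their values were seen, were eef-1B.1 (rank 1238), dph-1 (rank 1281) and efk-1 (rank 1446).

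Those 3 lay just below the optimal threshold. The region of eef-1B.1, an exchange factor subunit, was nearer to the 5' end of aco-2. The region of dph-1 was nearer to C14B1.3, and it ranked 3795 in replicate 1 and 427 in replicate 2. The summit at efk-1, whose product phosphorylates eEF2, was 561 bp upstream of its own 5' end, the nearest one. It ranked 3174 in replicate 1 and 1713 in replicate 2.

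**Figure D5:**
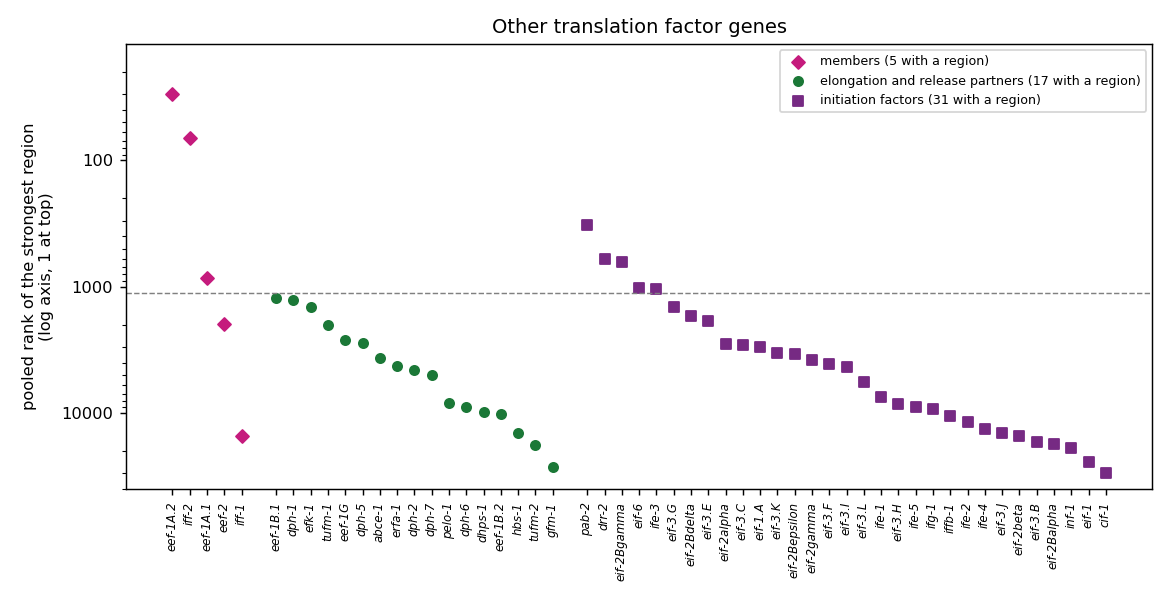
Pooled rank of the strongest region (log axis, 1 at the top) for the 5 genes (diamonds), the 17 elongation and release partners with a region (circles) and the 31 initiation factors with a region (squares), each sorted by rank. The dashed line is 1115. The points of eef-1A.2 and iff-2 stand above those of both lists, whose best is pab-2 at rank 323. As the 5 genes were chosen on these peak lists, nothing is read from that order.

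Of the initiation factors, 36 of 43 listed symbols were matched, and some of the others are further names of matched genes. An optimal region was found for 5 of them (13.9%, against 7.46% of all genes). A pooled one was found for 31 (86.1%, against 76.2% of all genes), with a median best rank of 4341. The strongest was at pab-2, which encodes a poly(A)-binding protein, with rank 323, signal 94.4 and a summit 189 bp upstream. It was followed by drr-2, an eIF4H-like factor, with rank 600, signal 69.7 and a summit 163 bp upstream. The region of eif-2Bgamma, a subunit of the eIF2 exchange factor, ranked 635 with signal 67.8. Its summit was 931 bp upstream, in an intron of C15F1.5.

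The other two were weaker and nearer to other genes. The region of eif-6 ranked 1019 (signal 50.8) and was nearest to tba-2. The region of ife-3, an eIF4E gene, ranked 1045 (signal 50.1) and was nearest to B0348.10. None of the 5 reached the rank of eef-1A.2 or iff-2. As those 2 belong to a group chosen on these peak lists, nothing is read from that.

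By the sum of the absolute log2 differences of rank in both replicates, the genes most like eef-1A.2 were T04C4.3 and fnip-2 (0.58), which share 1 region with ranks 16 and 74. Those most like iff-2 were lin-42, a period-like heterochronic gene (0.07, ranks 69 and 53), and F58G1.7 (0.12, ranks 64 and 54). Those most like eef-1A.1 were bed-1 and dyf-17 (0.10, 1 shared region with ranks 961 and 1897). The pooled rank of that shared region was 1179, below the optimal list. Likeness was measured over 2 replicates.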

How the data were processed

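MDL-1 ChIP-seq of whole L4 larvae was analysed from 4 deposited peak lists on ce11, and the 4 lists on ce10 were not used. Per the text files that the authors deposited, each candidate list was called on the alignment of 1 replicate or of both pooled, and the optimal list was derived from those 3 by the irreproducible discovery rate. The aligner, peak caller, threshold and depth were not given in the sources used here. Control libraries were not analysed here. The deposited signal is the authors' value per region, and as its scaling was not stated it was compared within a list only. The deposited −log10 q-value was at its maximum of 3.34 in 1095 optimal regions, so regions were ranked by signal.

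Genes and features came from the Ensembl release 115 annotation (WBcel235), and sequences from the RefSeq genome of the same build. The replicate region set beside a pooled one overlapped it by at least 1 bp, unless stated otherwise. The members, the lists and the motifs were chosen with earlier results of these data known. The genes named were the 5 members, the list genes with an optimal summit in the window and up to 2 genes most alike per member with an optimal region. The partners eef-1B.1, dph-1, dph-5 and efk-1 and the initiation factor eif-2Bdelta were named outside this rule, after their values were seen. So were neighbours of the regions described. No test was made, because 1 group with 2 replicates allows none between conditions. The window search and motif search were tested on simulated data. Analyses used Python 3.11.15, numpy 2.4.6, pandas 2.3.3, Biopython 1.88 and matplotlib 3.10.9.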

Additional observations from a re-analysis of the deposited data

How the results depend on the processing

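Alternatives changed the window, the gene assignment, the called set, the replicate, the overlap rule and the motif window. Narrow windows (1000 bp upstream to 200 bp downstream of any 5' end) and windows from 2000 bp upstream kept optimal regions at the same 3 genes, eef-1A.2, iff-2 and eef-1A.1. The nearest 5' end alone, the stronger 557 optimal regions, and the 1115 strongest regions of replicate 2 (without replicate 1) each left 2, eef-1A.2 and iff-2. The list genes with an optimal region, 5 in the report, numbered 3 with narrow windows, 3 by nearest 5' end and 1 (pab-2) in the stronger 557. They numbered 4 without replicate 2, where ife-3 was lost, and 6 without replicate 1, where eif-2Bgamma and eif-6 were lost and dph-1, dph-5 and eif-2Bdelta were gained. The share of all genes, 7.46% in the report, was 3.17% with narrow windows and 4.94% with 2000 bp. It was 4.48% by nearest 5' end, 3.8% in the stronger 557, 7.46% without replicate 2 and 7.37% without replicate 1. The ratio of iff-2 over iff-1 was 12.3 when pooled, 13.2 without replicate 2 and 4.43 without replicate 1. The region of iff-1 was a different one in each case. Ratios of eef-1A.2 over eef-1A.1 ranged from 3.91 to 4.91. Within 25 bp of the summit, CACGCG was found in the same 2 genes, and GAGAGA in 0 members. Within 100 bp, CACGCG was again found in 2 members, and GAGAGA in 3, where iff-1 was added. The causes were not tested. No paired analysis was possible because there was 1 group. Depth is unknown, so weak regions such as those of iff-1 have no stated precision.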
